A study of Mus musculus with 6 samples.

Results

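Cells that hold too much cholesterol export it, store it as esters and stop making it, and the liver X receptors (LXRs) run much of the export side. LXRα, encoded by Nr1h3, and LXRβ, encoded by Nr1h2, are nuclear receptors that bind oxysterols, pair with retinoid X receptors and raise genes such as Abca1, Abcg1, Mylip and Lpcat3. The sterol regulatory element-binding proteins (SREBPs) do the reverse job, raising sterol synthesis and lipoprotein uptake when membrane cholesterol is low. The 9 genes described here were taken by symbol from the gene table of the study, which holds 24421 genes. They comprise both LXR genes, 4 genes that LXRs are known to raise (Abca1, Abcg1, Mylip and Lpcat3), both genes of lysosomal cholesterol export (Npc1 and Npc2) and Soat1, which makes cholesterol esters. All 9 passed the filter on low counts.

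Total RNA was sequenced from 4T1-tetL1(GLucAI) cells, a derivative of the mouse breast carcinoma line 4T1 (strain label BALB/cfC3H) in which a doxycycline-inducible LINE-1 (L1) reporter is stably integrated as a selected population, not as a single clone. Doxycycline drives the recoded mouse L1 and firefly luciferase from 1 bidirectional promoter, and a Gaussia luciferase reads out retrotransposition. The untreated group has 3 libraries, whose treatment tag reads vehicle, and the doxycycline group has 3 libraries from cells given 400 ng/mL for 48 h. Both groups carry the cassette, and no cassette-free cells given doxycycline were compared, so an effect of L1 and an effect of the drug cannot be told apart. The cassette transcripts were not analysed here, so every direction rests on the labels. Because the samples are bulk cultures, fewer cells of a kind and less RNA per cell cannot be told apart either.

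Library totals ran from 31653464 to 43631312 counts. Of 13084 genes tested, 404 passed a Benjamini-Hochberg adjusted p of 0.05 in edgeR (called genes, hereafter), which is 3.09% of the tested genes, with 0.925% called higher and 2.16% called lower with doxycycline. Epithelial markers fitted the label of a carcinoma line, with 309 ± 9.07 CPM (a gene's counts relative to the scaled library total, the usual CPM unit, SD, n = 3) of Cdh1 in untreated libraries, and the 8 markers summed to 1866 to 1950 CPM untreated and 1811 to 2054 CPM with doxycycline, 1 of them called lower. Of the markers of other cell types, the macrophage genes Adgre1, C1qa and C1qb and the fibroblast genes Col3a1, Lum and Thy1 had no reads in any of the 6 libraries, while other members of both lists were detected. A count of 0 still allows a level of 0.0944 CPM in the smallest library, counting error only.

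To show what elements of the LXR and SREBP types look like, a stretch of promoter is printed for Abca1, the classical LXR target, and for Hmgcs1, a sterol synthesis gene that rose. The stretches end at the base before the RefSeq transcription start, and capitals mark the matched element. The Abca1 stretch (GRCm38.p6, chr4:53159896-53160015, minus strand) holds on its opposite strand a pair of GGTNA elements 5 bases apart, an arrangement of the kind LXR and its partner bind, at bases -67 to -53 from the start. The Hmgcs1 stretch (GRCm38.p6, chr13:119690201-119690350, plus strand) holds the SREBP-type element TCACNCCAC at bases -137 to -129.
Abca1: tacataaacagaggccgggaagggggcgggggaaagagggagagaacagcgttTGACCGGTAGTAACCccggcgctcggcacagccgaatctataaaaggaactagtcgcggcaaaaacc
Hmgcs1: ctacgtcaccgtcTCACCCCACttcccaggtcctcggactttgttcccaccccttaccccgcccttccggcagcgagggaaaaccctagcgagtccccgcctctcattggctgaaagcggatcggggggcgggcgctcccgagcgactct

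Promoter windows of 250 bases before to 50 after the start were found for 7 of the 9 genes, the missing entries being Abcg1 and Npc1. Searched on both strands, the GGTNA pair occurred in 1 of these 7 genes, Abca1, in 0.718% of all 32851 promoter windows and in 0.818% of all 27025 genes with a window. The letters of this search were settled after the Abca1 sequence had been read. The element TCACNCCAC occurred in 0 of the 7 genes, in 1 of 16 sterol synthesis genes with a window, in 1.24% of all windows and in 1.44% of all genes with one. The short box CCAAT, which marks sites of the SREBP partner NF-Y, stood in 4 of the 7 genes (Mylip, Lpcat3, Npc2 and Soat1), in 15 of the 16 sterol synthesis genes, in 37.4% of all windows and in 41.1% of all genes with one. These matches describe letters in a window and not binding.

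None of the 9 genes was called with doxycycline, in either direction (0 of 9 against 3.09% of all tested genes, edgeR). Of the 9, 8 lay below 0 on the log2 scale and Lpcat3 alone above it, against 49.2% of all tested genes below 0, though Nr1h3 turned above 0 in 4 and Npc1 in 1 of 16 other processing settings. The median log2 fold change of the 9 genes was -0.07, and that of all tested genes was 0.002. At an unadjusted p under 0.05 there was 1 gene, Abca1, where 16.2% of all tested genes reached that level. The Wald test of DESeq2 and limma voom also called 0 of the 9. Non-overlapping groups were found in 2 of the 9 genes, Abca1 and Lpcat3, a share close to the 21.3% of all tested genes. These counts leave the set near the background in significance, with a lean toward lower values that was largest for both ABC transporters.

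**Figure D1:**
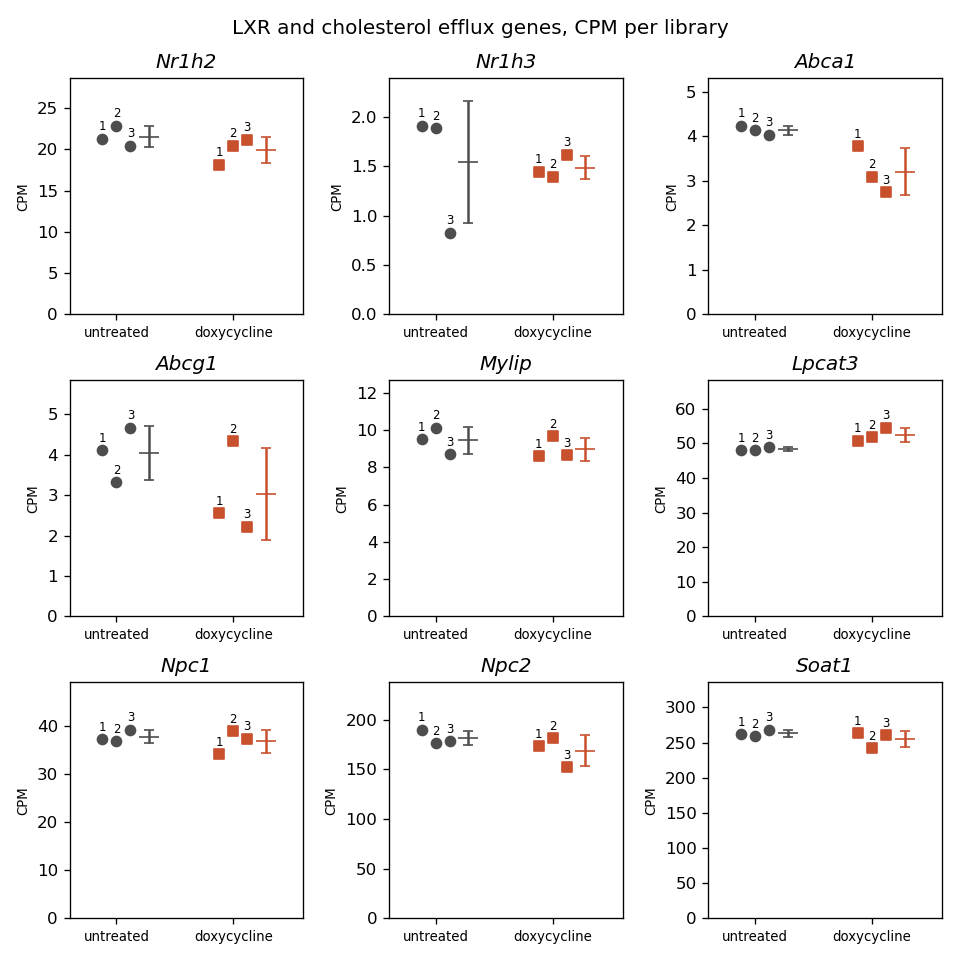
Each panel plots 1 gene, with CPM on a linear axis from 0, points for the 3 untreated (circles) and 3 doxycycline libraries (squares) numbered by replicate, and mean ± SD beside them. Abca1 is lower in all 3 doxycycline libraries, Lpcat3 is slightly higher in all 3, and the other 7 genes overlap between groups.

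The receptors themselves were present at very different levels. Per kilobase of exon, Nr1h2 stood at 6.43 ± 0.37 CPM per kb and Nr1h3 at 0.614 ± 0.246 CPM per kb in untreated libraries (SD, n = 3 each), so that the mean of Nr1h2 was 10.5 times that of Nr1h3, and 10.1 times with doxycycline. Nr1h2 (chromosome 7, 44549616 to 44553951, protein-coding) had 21.3, 22.9 and 20.5 CPM in untreated replicates 1 to 3 and 18.2, 20.5 and 21.2 CPM in doxycycline replicates 1 to 3. The groups overlapped, with doxycycline replicate 1 lowest. Its log2 fold change was -0.11 (SE 0.08, 95% interval -0.28 to 0.07, edgeR adjusted p 0.565).

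Nr1h3 (chromosome 2, 91184061 to 91202834, protein-coding) was scarce, at 84, 63 and 31 counts in untreated libraries and 46, 57 and 62 counts with doxycycline. In CPM these were 1.91, 1.89 and 0.828 against 1.45, 1.40 and 1.62, so untreated replicate 3 lay below every other library. The interval of its log2 fold change, from -0.66 to 0.55 around -0.05, was the widest of the 9 (edgeR adjusted p 0.954). Leaving out untreated replicate 3 moved the value to -0.35 (edgeR adjusted p 0.662) and leaving out untreated replicate 1 moved it to 0.14 (edgeR adjusted p 0.898). At this depth no direction could be given for LXRα.

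The partners and coregulators of LXR did not pass the test either. Of 15 listed genes 14 were tested, 9 lay above 0 and 5 below, with a median log2 fold change of 0.02. By edgeR 0 were called, and 1 had an unadjusted p under 0.05, against 16.2% of all tested genes. Rxra, which encodes the retinoid X receptor α, had 36.3 ± 1.93 and 37.0 ± 3.24 CPM in untreated and doxycycline libraries (SD, n = 3 each). Rxrb, which encodes the β form, had 27.0 ± 0.52 and 27.6 ± 1.09 CPM. Both were therefore measured well, with log2 fold changes of 0.03 each and intervals within -0.12 and 0.18. Of 7 enzymes that make or clear oxysterols, the ligands of LXR, only Sult2b1 and Hsd3b7 had enough counts to test. Again 0 were called, and 1 had an unadjusted edgeR p under 0.05, against the same 16.2%. Ch25h and Cyp27a1, which hydroxylate the side chain of cholesterol, had 0 counts in all 6 libraries.

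Abca1, which moves cholesterol and phospholipid onto lipid-poor apolipoprotein A-I, was the lowest-expressed of the 9 genes per kilobase. The gene (chromosome 4, 53030787 to 53159895, protein-coding) had 186, 138 and 151 counts in untreated replicates 1 to 3 and 120, 126 and 105 counts in doxycycline replicates 1 to 3. Scaled to library size, these were 4.24, 4.14 and 4.03 CPM untreated and 3.77, 3.09 and 2.74 CPM with doxycycline. All 3 doxycycline libraries lay below all 3 untreated libraries, and the untreated values lay close together. The log2 fold change was -0.38 (SE 0.17, 95% interval -0.72 to -0.03, edgeR unadjusted p 0.0352, edgeR adjusted p 0.26), a fold of 0.771. It did not pass the threshold over all tested genes. Of the tested genes 5.22% had a lower log2 fold change, while by edgeR p-value Abca1 ranked 1767 of 13084.

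Abcg1, which passes cholesterol to mature HDL particles, leaned the same way with more scatter. The gene (chromosome 17, 31057675 to 31117988, protein-coding) had 4.12, 3.33 and 4.67 CPM in untreated replicates 1 to 3 and 2.55, 4.33 and 2.22 CPM in doxycycline replicates 1 to 3. Doxycycline replicate 2 lay within the untreated range, while the other two doxycycline libraries lay below it. The log2 fold change was -0.41 (SE 0.22, 95% interval -0.85 to 0.04, edgeR adjusted p 0.365). With doxycycline replicate 2 left out the value was -0.77 and passed the threshold (edgeR adjusted p 0.0148), in a fit that called 487 genes lower in all, against 283 with all 6 libraries. Counts behind Abcg1 ran from 81 to 181 per library.

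The summed markers of other cell types were also lower with doxycycline, mainly through Cd14 in the macrophage list and Pdgfra in the fibroblast list. The summed level of the 10 macrophage markers was 29.1 to 31.4 CPM in untreated and 23.9 to 25.9 CPM in doxycycline libraries. That of the 8 fibroblast markers was 35.7 to 38.7 CPM against 27.96 to 29.58 CPM. Of the macrophage list 4 genes were tested, 1 above 0 and 3 below. Called lower was 1, Cd14, at 17.2 CPM untreated and 12.3 CPM with doxycycline (log2 fold change -0.48, edgeR adjusted p 0.00482). Of the fibroblast list 3 were tested, 1 above 0 and 2 below. Called lower was 1, Pdgfra, at 36.7 CPM untreated and 27.8 CPM with doxycycline (-0.40, edgeR adjusted p 0.000952). Over all tested genes 2.16% were called lower. Of the uncalled markers, Cd68 had 8.54 to 11.1 CPM, Mrc1 71 to 112 counts, Csf1r 8 to 27 counts and Ptprc 4 to 21 counts per library, and the collagen genes Col1a1 and Col1a2 had 2 to 20 and 7 to 34 counts. The tested ones went both ways, with log2 fold changes of -0.05 for Cd68, -0.16 for Mrc1 and 0.23 for Csf1r. Those of Col1a1 and Col1a2 were -0.68 and 0.65. The part of these markers in the transporter values was not tested.

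Mylip and Lpcat3, the other genes that LXRs are known to raise, lay closer to 0 than the transporters, one below it and the other above it. Whether they differed from the transporters was not tested. Mylip encodes an E3 ubiquitin ligase, also called IDOL, that restrains lipoprotein uptake (chromosome 13, 45389742 to 45412022, protein-coding). It had 9.50, 10.1 and 8.71 CPM in untreated replicates 1 to 3 and 8.59, 9.67 and 8.65 CPM with doxycycline, and the groups overlapped. Its log2 fold change was -0.07 (SE 0.11, 95% interval -0.30 to 0.16, edgeR adjusted p 0.816). Lpcat3, the acyltransferase that places polyunsaturated chains on phospholipids (chromosome 6, 124663027 to 124704418, protein-coding), had 48.0, 48.0 and 49.0 CPM in untreated replicates 1 to 3 and 50.8, 51.8 and 54.6 CPM in doxycycline replicates 1 to 3. All 3 doxycycline libraries lay above all 3 untreated libraries, by a small margin. The log2 fold change was 0.12 (SE 0.06, 95% interval -0.004 to 0.24, edgeR adjusted p 0.329).

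Lpcat3 shares 334 exon bases, 10.2% of its exon length, with Emg1 on the opposite strand. The strand setting of the counting is not given in the sources used here, so reads there may have been lost or given to either gene. Emg1 had 55.0 ± 1.68 and 58.8 ± 5.57 CPM in untreated and doxycycline libraries (SD, n = 3 each), or 0.10 on the log2 scale (edgeR adjusted p 0.488). The value of Lpcat3 carries that uncertainty.

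Genes that LXR is known to raise outside the set moved in both directions. Of 17 listed, 9 were tested, with a median log2 fold change of 0.14, and 3 were called higher and 1 lower, against 0.925% and 2.16% of all tested genes. All 3 higher genes make fatty acids or desaturate them and are known targets of SREBP as well as LXR. Fasn, the fatty acid synthase, rose by 0.29 (edgeR adjusted p 0.00417), Scd1 by 0.44 (edgeR adjusted p 3.07e-05) and Scd2, like Scd1 a stearoyl-CoA desaturase, by 0.16 (edgeR adjusted p 0.0326), all on the log2 scale. Tgm2, the tissue transglutaminase, fell by 0.28 on the log2 scale (edgeR adjusted p 0.039). Srebf1, the SREBP gene that LXR is known to raise, had 84.8 ± 3.01 and 84.9 ± 5.06 CPM (SD, n = 3 each), a difference of 0.003 on the log2 scale with an interval of -0.11 to 0.12 (edgeR adjusted p 0.987). Leaving out Fasn, Scd1, Scd2 and Srebf1, a split made after the values were seen, left 5 tested genes. Of these, 2 lay above 0 and 3 below, from -0.36 to 0.44 with a median of -0.07, and 0 were called higher and 1 lower.

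Some of these calls were lost when 1 library was left out, a fit with fewer replicates, though all 4 genes kept their direction. Scd1 was called without each of the 6 libraries in turn. The Fasn call was lost without untreated replicate 3 (log2 fold change 0.26, edgeR adjusted p 0.0713). The Scd2 call was lost in 4 of the 6 fits, without any 1 of the untreated libraries or without doxycycline replicate 3 (0.15 to 0.18, edgeR adjusted p 0.0728 to 0.24). The Tgm2 call was lost in 5 of the 6, holding only without doxycycline replicate 2 (-0.30 to -0.19 where lost, edgeR adjusted p 0.083 to 0.235).

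Neither gene of lysosomal export was called, and per kilobase Npc2 stood well above Npc1. Npc1, the membrane protein that takes cholesterol out of the lysosome (chromosome 18, 12189692 to 12236400, protein-coding), had 37.2, 36.8 and 39.2 CPM in untreated replicates 1 to 3 and 34.1, 38.8 and 37.3 CPM in doxycycline replicates 1 to 3. The groups overlapped, and doxycycline replicate 1 was lowest. Its log2 fold change was -0.04 (SE 0.07, 95% interval -0.18 to 0.10, edgeR adjusted p 0.846), and 0.01 when doxycycline replicate 1 was left out. It shares 4.52% of its exon bases with Rmc1, a gene on the opposite strand that the table lists as 3110002H16Rik (log2 fold change 0.19, edgeR adjusted p 0.281).

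Npc2, the soluble lysosomal protein that hands cholesterol to Npc1 (chromosome 12, 84754562 to 84773152, protein-coding), was the most abundant of the 9 genes per kilobase. It had 190, 176 and 178 CPM in untreated replicates 1 to 3 and 173, 181 and 152 CPM in doxycycline replicates 1 to 3. Doxycycline replicate 2 lay within the untreated range and the other doxycycline libraries lay below it. The log2 fold change was -0.10 (SE 0.06, 95% interval -0.22 to 0.01, edgeR adjusted p 0.372). With doxycycline replicate 2 left out the value was -0.16 and passed the threshold (edgeR adjusted p 0.0257). Abcg1 and Npc2 were the only 2 of the 9 genes called when single libraries were left out, both in that 1 fit. That fit called 487 of 13237 tested genes lower, against 283 of 13084 with all 6 libraries.

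Among 17 other genes of lysosomal and intracellular sterol transport, all tested, 6 lay above 0 and 11 below, with a median log2 fold change of -0.04, and 1 was called in each direction, against 0.925% higher and 2.16% lower over all tested genes. Lipa, the lysosomal acid lipase that frees cholesterol from the esters of incoming lipoproteins, stood at 22.3 ± 1.14 CPM untreated and 16.4 ± 1.47 CPM with doxycycline (SD, n = 3 each). It fell by 0.43 on the log2 scale (SE 0.09, edgeR adjusted p 0.00592). Without doxycycline replicate 3 its value was -0.40 and just missed the threshold (edgeR adjusted p 0.0502). Stard4, a cytosolic carrier of cholesterol that is a known SREBP target, stood at 45.3 ± 1.21 CPM untreated and rose to 55.6 ± 1.42 CPM (SD, n = 3 each). The difference was 0.30 on the log2 scale (SE 0.06, edgeR adjusted p 0.00455), and 0.27 without untreated replicate 3 (edgeR adjusted p 0.0581). Neither Npc1 nor Npc2 was called, and whether Lipa differed from them was not tested.

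Soat1, the enzyme of the endoplasmic reticulum that turns cholesterol into esters for storage (chromosome 1, 156424525 to 156474331, protein-coding), was the most precisely measured of the 9. It had 262, 259 and 269 CPM in untreated replicates 1 to 3 and 263, 242 and 260 CPM in doxycycline replicates 1 to 3. The groups overlapped, with doxycycline replicate 2 lowest. Its log2 fold change was -0.05 (SE 0.05, 95% interval -0.14 to 0.05, edgeR adjusted p 0.681). The list of 5 other genes for ester formation and hydrolysis had a median of -0.01 with 0 called by edgeR and 0 at an unadjusted p under 0.05. A list of 8 further efflux transporters and acceptors was not limited to cholesterol and also held drug transporters. Of these 8 genes 6 were tested, with a median of 0.04 and 0 called by edgeR. At an unadjusted edgeR p under 0.05 there were 2, both higher with doxycycline, where 16.2% of all tested genes reached that level in either direction. They were Apoe, also counted among the LXR target genes above, and Abcb1b, a drug transporter. Apoa1, the main acceptor of Abca1, had 0 counts in all 6 libraries.

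Ordered by level per kilobase of exon over all 6 libraries, the genes ran Npc2, Soat1, Lpcat3, Nr1h2, Npc1, Mylip, Nr1h3, Abcg1 and Abca1, from 32.2 CPM per kb for Npc2 to 0.354 CPM per kb for Abca1. Neighbours down to Mylip and Nr1h3 did not overlap within either group of libraries. Nr1h3 and Abcg1 overlapped in both groups, and Abcg1 and Abca1 overlapped with doxycycline but not without it. The storage and lysosomal genes therefore stood far above the efflux transporters in these cells in both groups. The exon lengths come from all annotated transcripts of a gene, so a level is understated where cells use a short form.

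The question of whether the set moved opposite to sterol synthesis was read from 21 enzymes, from acetyl-CoA to cholesterol. The rise of this pathway was already known when the genes here were chosen, so it serves as a reference only. All 21 lay above 0, although Lbr at 0.004 fell below 0 in 5 of 16 other settings, with a median log2 fold change of 0.46, and 17 were called higher and 0 lower, where 0.925% of all tested genes were called higher. Hmgcs1, the synthase that makes HMG-CoA and whose promoter is printed above, had 187 ± 0.94 CPM untreated and 271 ± 8.78 CPM with doxycycline (SD, n = 3 each). It rose by 0.54 on the log2 scale (95% interval 0.44 to 0.63, edgeR adjusted p 2.44e-07). Lbr, Ebp, Tm7sf2 and Dhcr7 were the 4 enzymes not called (edgeR adjusted p 0.0858 to 0.978). Of the 17 calls, that of Mvk was lost without untreated replicate 3 (0.34, edgeR adjusted p 0.089) and that of Sc5d without any 1 of the untreated libraries or doxycycline replicate 3 (0.19 to 0.24, edgeR adjusted p 0.0971 to 0.136), while the other 15 held in each of the 6 fits.

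**Figure D2:**
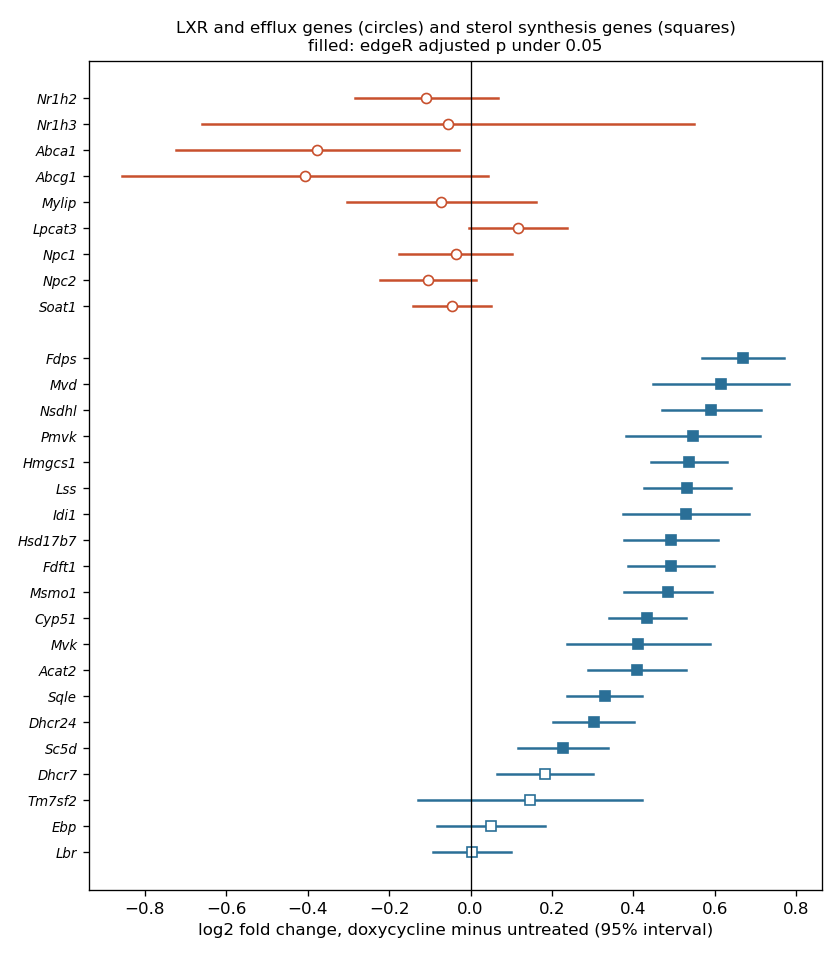
Log2 fold change of doxycycline against untreated libraries (x axis) for the 9 LXR and efflux genes (circles) and 20 of the 21 sterol synthesis enzymes (squares), with bars for the 95% interval and filled symbols for an edgeR adjusted p under 0.05. The efflux set is open throughout and lies between -0.41 and 0.12, while 16 of the 20 enzymes drawn are filled and lie to the right of 0.

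Set beside that rise, none of the 9 genes was called in either direction. The interval of each gene but Nr1h3 ended at or below 0.24, under the median of 0.46 for synthesis, and that of Nr1h3 reached 0.55. For Nr1h2, Mylip, Lpcat3, Npc1, Npc2 and Soat1 the intervals stayed within -0.30 and 0.24, so a fall as large as the rise of synthesis lay outside them. For Abca1, Abcg1 and Nr1h3 the intervals reached down to -0.72, -0.85 and -0.66, so a fall of that size lay inside them. The mean log2 CPM of the 9 genes was 4.23 to 4.36 in untreated and 4.13 to 4.26 in doxycycline libraries, which overlapped. The same mean over the 21 enzymes was 6.23 to 6.25 untreated and 6.62 to 6.67 with doxycycline, with no overlap. These means describe the libraries and carry no test.

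SREBP control and uptake genes stood between the sets. Of 12 listed, 11 were tested, with a median log2 fold change of 0.09, and 3 were called higher and 0 lower, against 0.925% and 2.16% of all tested genes. Insig1, which holds SREBP in the endoplasmic reticulum and is itself an SREBP target, rose by 0.39 on the log2 scale (edgeR adjusted p 1.76e-05) and was called without each library in turn. Srebf2, the SREBP gene that governs sterol synthesis, rose by 0.18 (edgeR adjusted p 0.0399), a call lost without any 1 of the untreated libraries or without doxycycline replicate 3 (0.18 to 0.19, edgeR adjusted p 0.133 to 0.211).

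**Figure D3:**
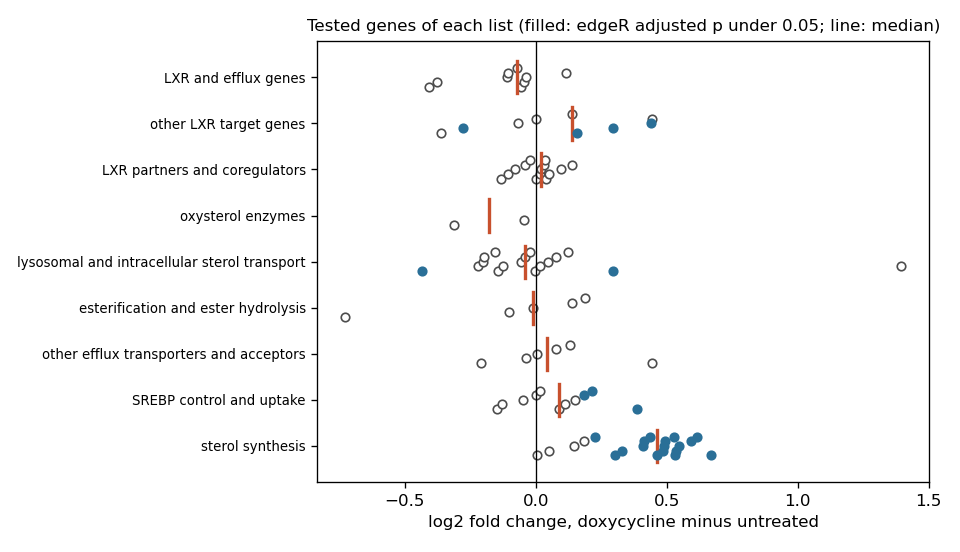
Each circle is 1 tested gene of a list (rows), placed by its log2 fold change of doxycycline against untreated libraries, filled where the edgeR adjusted p was under 0.05, and the vertical line is the list's median (small vertical shifts within a row only separate points). Calls stand on the right in the sterol synthesis row (17 of 21 genes) and are absent from the LXR and efflux row, whose median is -0.07.

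The pull of single libraries on the 9 genes was largest for the scarce ones. Abca1 was lowest, at -0.50, when doxycycline replicate 1 was left out and highest, at -0.28, when doxycycline replicate 3 was, with every value below 0 and none past the threshold (edgeR adjusted p 0.126 to 0.539). Abcg1 ran from -0.77 to -0.22, and only its lowest value passed. Lpcat3 ran from 0.09 to 0.14, above 0 each time (edgeR adjusted p 0.25 to 0.617). Nr1h3 and Npc1 changed sign.

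**Figure D4:**
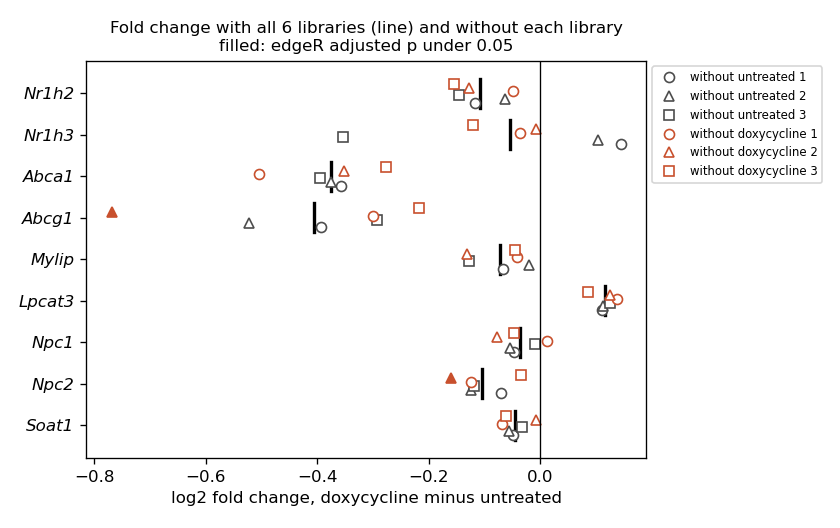
Log2 fold change of each of the 9 genes (x axis, doxycycline against untreated) with all 6 libraries (black line) and with each library left out in turn (grey, untreated library left out; orange, doxycycline library left out; circle, triangle and square for replicates 1 to 3), filled where the edgeR adjusted p was under 0.05. The filled symbols are Abcg1 (-0.77) and Npc2 (-0.16), both without doxycycline replicate 2.

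By centred log2 CPM over the 6 libraries, the tested genes closest to Abca1 were Mab21l1, C1s1 and Ccdc159, with root mean square differences of 0.0639, 0.0646 and 0.0661 log2 units, where the median gene differed by 0.255. Those closest to Nr1h2 were C1galt1c1, Egfr and Serpinb9, at 0.0165, 0.0209 and 0.0219 log2 units against a median of 0.144. None of these 6 genes was called (edgeR adjusted p 0.0572 to 0.89). With 6 libraries and 13084 genes many profiles lie close together.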

How the data were processed

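Total RNA depleted of ribosomal RNA was sequenced in 6 libraries. The authors aligned reads with STAR to the mouse genome (UCSC mm10/GRCm38), counted them per gene with featureCounts (Subread 1.6.2 per the labels) and deposited raw counts. Whether counting used the strand, and how multi-mapping reads were treated, is not given in the sources used here. Groups came from the sample titles. Replicates are described by the study as biological, without saying that they came from separate cultures, so p-values measure the spread between these libraries, and each pair differed by more than sampling noise (chi-square per degree of freedom 6.14 to 22.1).

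Counts were tested with the quasi-likelihood test of edgeR 4.0.16 (R 4.3.3; TMM scaling, filterByExpr, robust, group as the only term), with Benjamini-Hochberg adjustment over all 13084 tested genes at 0.05. The study used DESeq2, which was run as an alternative (version 1.42.0), as was limma 3.58.1. The SE is the absolute log2 fold change over the square root of F, and 95% intervals use its total degrees of freedom. CPM use TMM-scaled totals. The log2 CPM of profiles and means use a prior count of 2. Exon lengths and positions are from GENCODE M21 (GRCm38), counted from 1, and promoters from RefSeq (GRCm38.p6).

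The 9 genes and all lists were chosen with earlier results of these data known, including the rise of sterol synthesis. Named genes are the 9, called genes of the other lists (at most 6 each), Srebf1, Srebf2, Rxra and Rxrb, and the 3 genes closest in profile to Abca1 and Nr1h2. Other genes are named as markers, as overlapping genes, for counts of 0, or after their values were seen where a count was 5 or fewer. Some genes within the listed counts are not reported here by name.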

Additional observations from a re-analysis of the deposited data

How the results depend on the processing

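The 9 genes gave 0 calls higher in each of the 16 alternatives and 0 calls lower in 15 of them, that is under other scalings, other filters, the replicate block, DESeq2, limma voom, without Rn45s, the GC content and length correction (chosen after seeing the data, with values for 96.3% of tested genes) and 5 of the 6 fits that left out a library. The sixth gave 2, so that calls lower ran from 0 to 2. The median of the 9 genes stayed below 0 in all 16 (-0.13 to -0.05), and that of sterol synthesis above 0 (0.45 to 0.47, with 15 to 18 calls). Over all tested genes, calls rose without a filter (210 higher and 439 lower) and with the GC content and length correction (350 and 480). Without 1 library they ran from 44 to 269 higher and from 116 to 487 lower. In the other lists of the pathway, genes called higher ran from 2 to 9 and lower from 0 to 3 without 1 library. The cause was not tested.

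Same-numbered libraries did not deviate together (correlations of deviations -0.04, -0.004 and 0.02), and the numbers were read as names only. With 3 libraries per group, whether same-numbered libraries were paired cannot be settled. With the replicate block 118 genes were higher and 300 lower, the 9 genes again gave 0 calls, and Srebf2 lost its call (0.18, edgeR adjusted p 0.0504). Srebf2 also lost it with limma voom (limma adjusted p 0.0508) and, as did Scd2, with library size scaling (edgeR adjusted p 0.0554 and 0.0654).

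Depth limits Nr1h3, Abca1 and Abcg1, whose counts ran from 31 to 186 per library.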

Other observations

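Apoe, an apolipoprotein that accepts cholesterol and a known LXR target in macrophages, was singled out after its values were seen, because it ran against both transporters. It had 4.07 ± 0.25 CPM in untreated and 5.53 ± 0.16 CPM in doxycycline libraries (SD, n = 3 each) and did not overlap between groups. The difference was 0.44 on the log2 scale (SE 0.14, edgeR adjusted p 0.097) and missed the threshold. It was above 0 in all 16 alternatives (0.39 to 0.48) and passed the threshold in 0 of them.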
